A study of Rattus norvegicus with 16 samples.

Results

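Complement component and regulator genes were followed in PCCl3 cells, a differentiated rat thyroid follicular line, after RNA interference against Pax8, the paired-box transcription factor that maintains thyroid differentiation. The 9 genes were C1s, C2, C4a, C3, Cfb, Cfd, Cfi, Cd55 and Cd59, and they were found by translating the transcript accession printed beside each array feature into a current RefSeq symbol. All 9 genes were present, through 10 of the 41012 non-control probes of the array: C1s had 2 probes, each other gene had 1, and the Cd59 probe is now filed under the rat symbol Cd59b. The rule that picks the probes uses no measured value, though the genes were named with earlier results of these arrays known.

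The arrays were 2-colour Agilent whole-genome rat arrays. On each one, RNA from cells 48 h after transfection with siRNA against Pax8 (siPax8) was set against RNA from wild-type cells (wt) or from cells given a scramble siRNA (siScramble), both siRNAs being used at 10 ng/ml with a Lipofectamine reagent. The labels call the wt cells wild type, whereas the study's methods and supplement differ on whether they received the transfection reagent, so the wt comparison may hold the effect of transfection as well as that of Pax8. All cells came from this 1 line, grown in medium with TSH and hydrocortisone. Each comparison had 4 biological replicates, each hybridised once per dye orientation, which made 8 arrays per comparison and 16 in all. The design scheme draws the same siPax8 samples in both comparisons. The comparisons may thus share them and are given side by side, though the arrays did not bear out the sharing for every replicate number.

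Complement is a cascade of plasma proteases that marks surfaces for removal. The classical route starts with the C1 complex, whose protease C1s cleaves C4 and C2 to build a C3 convertase; the alternative route builds its own convertase from factor B (Cfb), which factor D (Cfd) cleaves once it is bound to C3b. Both routes converge on C3, and host cells are spared by factor I (Cfi), the protease that inactivates C3b and C4b, and by the membrane-anchored inhibitors Cd55, which dissociates convertases, and Cd59, which blocks the membrane attack complex. The liver makes most plasma complement, but many epithelial cells make components of their own.

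Promoter sequence was at hand in RefSeq (assembly GRCr8) for 5 of the 9 genes: C3, C4a, Cfd, Cfi and Cd55. Entries for C1s, C2, Cfb and Cd59b were not among them. The 250 bases before the gene start are given for Cfd and for C3, the component on which all routes converge. Cfd was the member higher at an adjusted p under 0.005 in both comparisons. Capitals mark the motif matches described after the sequences. Both genes lie on the minus strand, and each sequence is written 5′ to 3′ in the direction of transcription.
Cfd, chr7:10465497-10465746: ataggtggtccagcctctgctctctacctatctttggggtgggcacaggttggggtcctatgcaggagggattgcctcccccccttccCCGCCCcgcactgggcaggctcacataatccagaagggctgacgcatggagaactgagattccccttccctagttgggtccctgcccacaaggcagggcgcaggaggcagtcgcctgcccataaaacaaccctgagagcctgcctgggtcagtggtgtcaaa
C3, chr9:2201340-2201589: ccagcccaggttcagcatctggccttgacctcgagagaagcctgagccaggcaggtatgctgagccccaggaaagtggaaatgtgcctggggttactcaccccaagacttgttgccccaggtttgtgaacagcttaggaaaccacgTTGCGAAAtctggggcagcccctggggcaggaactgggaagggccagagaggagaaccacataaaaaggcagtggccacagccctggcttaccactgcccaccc

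Motifs of 7 factors or factor families were searched on both strands of these windows and of the same window of all 33469 RefSeq promoters of this length. The Sp1 box GGGCGG was present in Cfd, once and on the opposite strand, and in Cd55, and 30.5% of all promoters held it. The C/EBP letters TTGCNNAA were matched in C3 alone among the 5, against 9.22% of all promoters. AANNGAAA, the core of interferon regulatory factor sites, occurred in Cfi, against 23.3% of all promoters. Its matches in Cfi lay 179 to 172 and 104 to 97 bases before the start, both on the opposite strand. The Pax core GCGTGAC (1.74% of all promoters), the STAT letters TTCNNNGAA (7.67%), the AP-1 letters TGANTCA (6.34%) and the NF-kB consensus (3.54%) had no match in any of the 5 windows. In Cd55 the Sp1 box occurred 3 times, with 2 of the matches overlapping by a base; no match of a different motif overlapped another. These matches describe the letters in the windows and no binding.

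The Pax8 probe, which checks the knockdown, gave log2 ratios of siPax8 over wt of -0.84, -0.57, -0.59 and -0.26 in replicates 1 to 4, a mean of -0.56 ± 0.24 (SD, n = 4), so that 67.6% of the wt signal remained (limma adjusted p = 0.000496). Against siScramble the replicates gave -0.58, -0.29, -0.12 and -0.01, a mean of -0.25 ± 0.25 (limma adjusted p = 0.147). On this probe the RNA knockdown was thus small, and it was smaller in replicate 4 than in replicate 1 under either control. Against siScramble it did not pass the study's threshold of an adjusted p under 0.005. The paper tested silencing as protein, by immunoblot, and reported less Pax8 than in both controls. Protein is not measured by these arrays. The wt call was lost without replicate 3 (-0.56), with siPax8 in Cy3 only and with Agilent's processed signals, over a range of adjusted p of 5.04e-07 to 0.0185.

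Of the 10 member probes, 3 passed this threshold against wt cells, those of Cfb, Cfd and Cd59, and all 3 were higher in siPax8 cells. Over the whole array 15.2% of probes passed in this comparison, 7% higher and 8.19% lower. Against siScramble cells 2 of 10 passed, the Cfd probe and 1 of the C1s probes, again higher, where 2.03% of all probes passed, 1.18% higher and 0.849% lower. Cfd was the 1 member called in both comparisons, and no member was called lower in either. With 10 probes the member shares stand on 2 and 3 calls. The share of all probes called in both comparisons is not given here. Since the siPax8 samples are drawn as shared, the 2 calls of Cfd may not be independent. The median log2 ratio over the 9 genes was 0.05 against wt and 0.07 against siScramble, and over all probes it was -0.00 in each comparison.

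**Figure D1:**
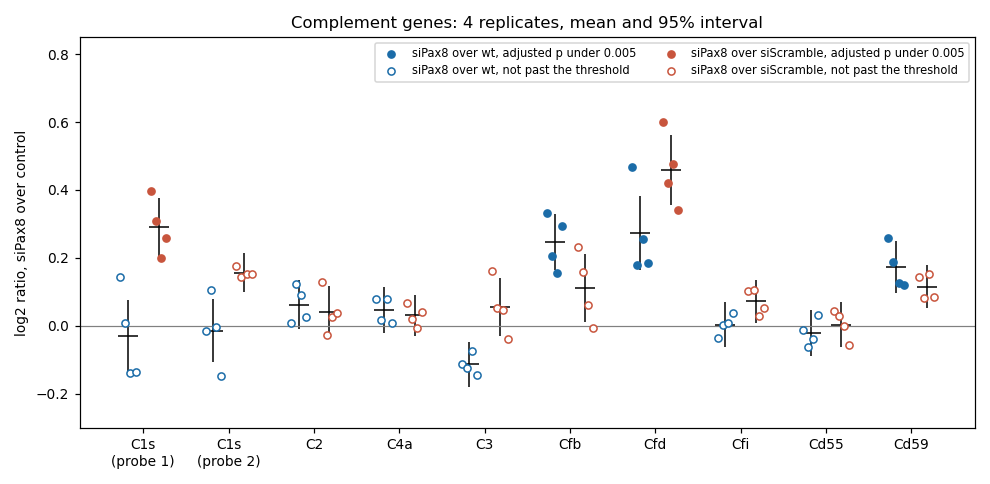
Log2 ratio of siPax8 over control (y axis) for the 10 probes of the 9 complement genes (x axis), against wt (blue) and siScramble (red). Each point is a replicate, the mean of its 2 dye orientations; the black bar is the mean with limma's 95% interval, and filled points mark an adjusted p under 0.005. Cfd is filled in both comparisons, and Cfb, Cd59 and the first C1s probe in 1 each.

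Cfd (factor D, also called adipsin, the serine protease that cleaves factor B) was the 1 member called higher in both comparisons. In replicates 1 to 4 its log2 ratio over wt was 0.47, 0.18, 0.26 and 0.18. Every replicate was above 0, and replicate 1 stood highest. The mean was 0.27 ± 0.14 (SD, n = 4; 95% interval 0.16 to 0.38), a 1.21-fold higher signal (limma adjusted p = 0.00264). Over siScramble the replicates gave 0.60, 0.42, 0.48 and 0.34, again with replicate 1 highest and none below 0.3. This mean was 0.46 ± 0.11 (95% interval 0.36 to 0.56), or 1.37-fold (limma adjusted p = 0.00163).

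The Cfd probe was well above background in both channels of all 16 arrays, and siPax8 was the brighter channel on each of them. On the normalized log2 intensity scale its siPax8 channel ran from 9.34 to 9.71 and its siScramble channel reached at most 9.15, so that the channels did not overlap. Against wt the channels overlapped, siPax8 running from 9.29 to 9.73 and wt from 9.10 to 9.40. Within the 4 slides, each of which carried 2 arrays of a comparison, the mean log2 ratio of Cfd lay between 0.18 and 0.33 over wt and between 0.42 and 0.50 over siScramble. In the replicate with the smallest Pax8 difference from siScramble, replicate 4, Cfd differed by 0.34, its lowest value in that comparison. In replicate 1, with the largest Pax8 difference, Cfd had its highest value, 0.60. Replicates 2 and 3 went the other way: Pax8 differed less in replicate 3 than in replicate 2, while Cfd was higher, at 0.48 against 0.42. A relation between the Pax8 and Cfd values was not tested.

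The direction held but the call did not under every setting. The wt call was lost without replicate 2, 3 or 4 (log2 ratios 0.30, 0.28 and 0.30), in either dye orientation alone and with Agilent's processed signals, over a range of adjusted p of 0.000168 to 0.0385. The siScramble call was lost without replicate 2 or 3 (0.47 and 0.45), with siPax8 in Cy5 only and with the processed signals, over a range of adjusted p of 6.3e-06 to 0.0258.

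Cfb (factor B, the catalytic subunit of the alternative convertase) was seen above background in siPax8 cells and not in wt cells. Its probe was well above background in all 8 siPax8 channels of the wt comparison and in none of the 8 wt channels. The log2 ratios over wt were 0.33, 0.21, 0.16 and 0.29 in replicates 1 to 4. The siPax8 channel, at 6.66 to 6.82 on the normalized log2 scale, lay above the wt channel, at 6.40 to 6.54, on every array. Their mean was 0.25 ± 0.08 on the log2 scale (limma adjusted p = 0.000923). Because the wt side was not measured above background, its true level is not known. By the channel means of 6.74 and 6.49, siPax8 was 1.19-fold higher. After loess and quantile scaling of the average intensity the fold was 1.22, from 6.76 and 6.48. These folds are point estimates and not lower bounds: the log2 ratio of 0.25 had a 95% interval of 0.16 to 0.33.

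This value depends on the background treatment more than that of any other called member. The offset of 50 added to each intensity pulls dim ratios towards 0, and over the settings the Cfb log2 ratio over wt ran from 0.22 to 2.06, the highest with Agilent's processed signals. It was lost as a call without replicate 2 (0.26) or replicate 4 (0.23), over a range of adjusted p of 1.72e-05 to 0.0077. Slide means ran from 0.16 to 0.32.

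Over siScramble the same probe gave 0.23, 0.16, 0.06 and -0.01. Replicates 1 and 2 lay above 0 and replicate 4 at it. Its mean was 0.11 ± 0.11 (limma adjusted p = 0.188), with 5 of 8 siPax8 channels and 2 of 8 siScramble channels well above background, and it did not pass. The Cfb ratio over wt exceeded that over siScramble by 0.14 (95% interval 0.01 to 0.26; limma adjusted p = 0.200), a difference that was not past the threshold.

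Cd59 (protectin, the glycolipid-anchored inhibitor of the membrane attack complex) was among the bright probes, well above background in both channels of all 16 arrays. Its log2 ratios over wt were 0.26, 0.19, 0.13 and 0.12. All 4 lay above 0, within a narrow range. The mean was 0.17 ± 0.06 (SD, n = 4), or 1.13-fold (limma adjusted p = 0.00424). Over siScramble the replicates gave 0.14, 0.08, 0.15 and 0.08, also all above 0, and the mean of 0.12 ± 0.04 was short of the threshold (limma adjusted p = 0.0434). The wt and siScramble ratios differed by 0.06 (95% interval -0.03 to 0.15).

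The wt call of Cd59 was close to the threshold and depended on the dye. With siPax8 in Cy3 the arrays gave 0.21 to 0.37, with siPax8 in Cy5 they gave -0.00 to 0.15, and the call was lost in the Cy5 arrays alone. It was also lost without any of replicates 1, 2, 3 or 4 (0.14, 0.17, 0.19 and 0.19), without background correction and with the processed signals, over a range of adjusted p of 0.000452 to 0.169.

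C1s (the protease of the C1 complex) was higher against siScramble and not against wt. Its first probe, A_44_P332422, gave log2 ratios over siScramble of 0.40, 0.31, 0.20 and 0.26. Every array had the brighter siPax8 channel, and the siPax8 range of 7.86 to 8.19 met the siScramble range of 7.62 to 7.88 only at its edge. The mean was 0.29 ± 0.08 (SD, n = 4), or 1.22-fold (limma adjusted p = 0.00487). Over wt the same probe gave 0.14, 0.01, -0.14 and -0.14, on either side of 0, with a mean of -0.03 ± 0.13 (limma adjusted p = 0.750).

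The second C1s probe, A_44_P332429, was higher over siScramble by a smaller value and disagreed on the call. Its replicates over siScramble were 0.18, 0.15, 0.15 and 0.15, with a mean of 0.16 ± 0.01 (limma adjusted p = 0.0102). Over wt its mean was -0.01 ± 0.10 (limma adjusted p = 0.875). Its siScramble value passed with a dye term, with the slide as a block and with siPax8 in Cy3 only (0.22). The dye term and slide fits count the 2 arrays of a replicate as separate values. With the replicate number as a block the value did not pass (limma adjusted p = 0.00685). With the processed signals it was 0.47, over a range of adjusted p of 0.00192 to 0.272. The call of the first probe was lost without replicate 1, 2, 3 or 4 (0.25, 0.28, 0.32 and 0.30) and in 6 other settings, over a range of adjusted p of 0.00015 to 0.0522. Those settings include loess alone and quantile scaling of the average intensity, which share their ratios.

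The test of whether a member's ratio over wt differed from its ratio over siScramble called 0 of the 10 member probes at an adjusted p under 0.005, against 3.35% of all probes. With the siPax8 samples shared as drawn, this difference is an indirect ratio of siScramble over wt. The nearest to the threshold was the first C1s probe, at -0.32 (95% interval -0.47 to -0.17; limma adjusted p = 0.0115), and 8 of its 8 wt channels, at 8.08 to 8.28, lay above its siScramble channels on other arrays. This fit takes the 8 values as independent, although the siPax8 samples are drawn as shared. A block on the replicate number pairs the comparisons by number, though replicate 3 correlated at 0.04 with its own number and at 0.40 with another. With that block the value of the first C1s probe passed the threshold (limma adjusted p = 0.000779). It also passed without replicate 1 (-0.34) and without background correction (-0.41); its adjusted p ran from 0.000779 to 0.0808 over the settings. For Cfd the difference was -0.19 (95% interval -0.35 to -0.03; limma adjusted p = 0.148).

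**Figure D2:**
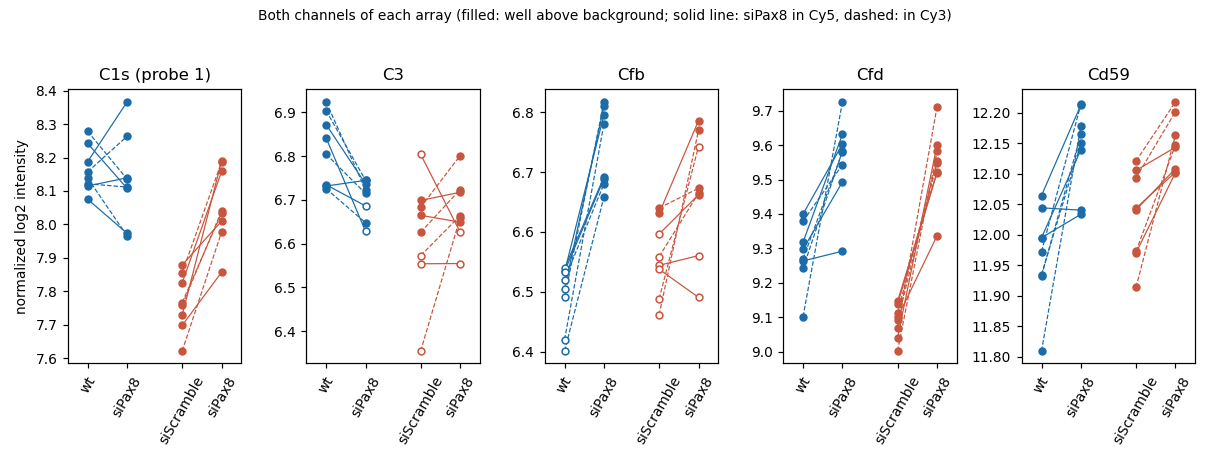
Normalized log2 intensity (y axis, a separate scale in each panel) of both channels of every array for 5 member probes, wt comparison in blue and siScramble comparison in red; a line joins the channels of an array, solid with siPax8 in Cy5 and dashed with siPax8 in Cy3. Filled points were well above background: the Cfb points of wt are all open, and the Cfd siPax8 and siScramble points do not overlap.

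C3 (the central component, whose cleavage all routes share) was dim, and neither comparison passed. Its log2 ratios over wt were -0.11, -0.12, -0.07 and -0.15, all below 0, with a mean of -0.11 ± 0.03 (SD, n = 4; limma adjusted p = 0.0172). The probe was well above background in 8 of 8 wt channels and 6 of 8 siPax8 channels. Over siScramble the replicates gave 0.16, 0.05, 0.05 and -0.04, around 0, with a mean of 0.05 ± 0.08 (limma adjusted p = 0.507). With the slide as a block, which counts the 2 arrays of a replicate as separate values, the wt value of -0.11 passed the threshold. With the replicate number as a block it did not (limma adjusted p = 0.00931). The value of -0.19 without background correction passed. The processed signals gave -0.56, short of the threshold, over a range of adjusted p of 0.00296 to 0.122. The 2 ratios differed by -0.17 (95% interval -0.27 to -0.07; limma adjusted p = 0.0374).

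C2 (the serine protease of the classical convertase) was measured just above background in all wt and siScramble channels. Its log2 ratios over wt were 0.01, 0.12, 0.09 and 0.03, a mean of 0.06 ± 0.05 (limma adjusted p = 0.217), and over siScramble they were 0.13, -0.03, 0.03 and 0.04, a mean of 0.04 ± 0.06 (limma adjusted p = 0.585). The 95% intervals, -0.01 to 0.13 and -0.03 to 0.12, are those of a dim probe, whose ratios the offset pulls towards 0.

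The probes of the remaining members were not well above background on nearly all arrays. C4a (the partner of C2 in the classical convertase) was not well above background in any wt channel or siScramble channel, and in 1 of 16 siPax8 channels. Cfi was likewise seen in 1 of 16 siPax8 channels, and Cd55 in no channel of any array. Their mean log2 ratios, from -0.02 to 0.07 over both comparisons, are those of dim spots. With the processed signals the C4a ratio over wt was 0.67, not past the threshold, over a range of adjusted p of 0.0103 to 0.901. A C4a probe may also bind the transcript of the near-identical C4b gene.

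The other genes of the pathway were read from a list of 55 complement genes, of which 40 had a probe and 31 of these were not members. Of these 31 genes, 1 rose and 0 fell against wt, and 0 rose and 1 fell against siScramble. The median log2 ratio of the 31 genes was 0.01 over wt and 0.00 over siScramble. Of these 31 genes, 10 had a probe well above background in the siPax8 or the wt channel on at least 4 of the 8 arrays.

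The gene that rose was Clu (clusterin, a secreted chaperone that also inhibits the terminal complex). Its log2 ratios over wt were 0.09, 0.22, 0.33 and 0.27, a mean of 0.23 ± 0.10 (SD, n = 4; limma adjusted p = 0.00253). Over siScramble they were 0.29, 0.31, 0.15 and 0.13, a mean of 0.22 ± 0.09 that did not pass (limma adjusted p = 0.0161). All 8 values were above 0, and replicates 1 and 2 were lower than 3 and 4 in the first comparison and higher in the second. With the dye orientations kept as arrays and the replicate number as a block, the siScramble value passed (limma adjusted p = 0.00214, in a range over the settings of 0.000561 to 0.115). The wt call was lost without replicate 2, 3 or 4 (0.23, 0.19 and 0.21), with siPax8 in Cy3 only and with the processed signals, over a range of 3.6e-05 to 0.157.

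The gene that fell was C5ar1, the receptor of the anaphylatoxin C5a. Over siScramble it gave -0.33, -0.34, -0.23 and -0.27, a mean of -0.29 ± 0.05 (limma adjusted p = 0.00221), and over wt 0.02, -0.12, -0.12 and -0.12, a mean of -0.08 ± 0.07 (limma adjusted p = 0.118). Its siScramble call was lost without replicate 1, 2, 3 or 4 (-0.28, -0.28, -0.31 and -0.30) and in 4 other settings. Those settings include loess alone and quantile scaling of the average intensity, which share their ratios. The processed signals gave -1.20, and the adjusted p of C5ar1 ran from 5.71e-05 to 0.0219 over the settings. Its relative C5ar2 gave 0.13 ± 0.03 over wt (limma adjusted p = 0.00946) and Cr1l, a membrane inhibitor of rodents, 0.11 ± 0.03 (limma adjusted p = 0.0238), neither past the threshold.

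Under the rule that all probes of a gene pass, 640 of 8899 named genes rose and 837 fell against wt, and 144 rose and 111 fell against siScramble. By role, the calls against wt stood in the alternative pathway (2 of 2 genes measured, Cfb and Cfd), the fluid-phase inhibitors (1 of 9, Clu) and the membrane inhibitors (1 of 5, Cd59). None of the 5 genes of classical initiation, the 7 of lectin initiation, the 2 convertase genes of those routes, the 2 terminal components or the 7 receptors passed against wt. The siScramble comparison had 1 call in the alternative pathway, Cfd, and 1 among the receptors, C5ar1.

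**Figure D3:**
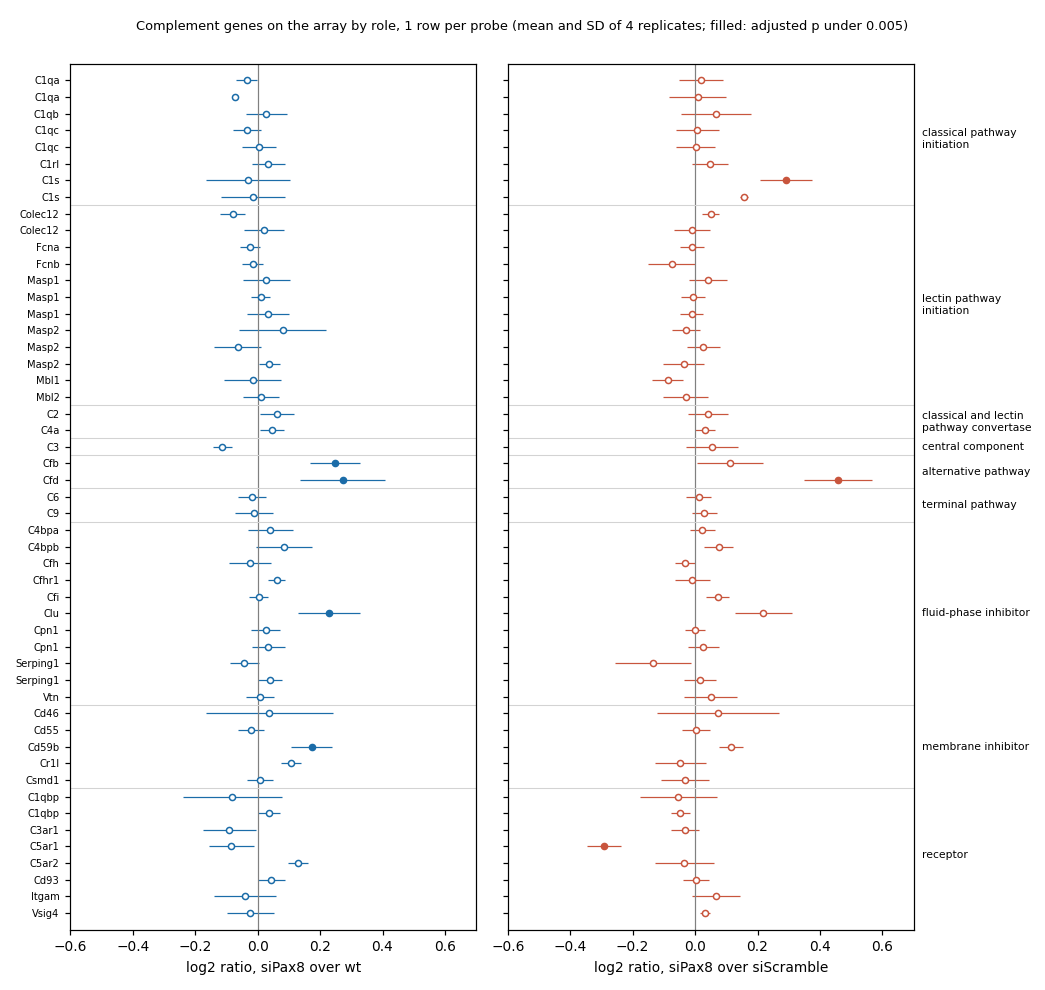
Log2 ratio of siPax8 over wt (left) and over siScramble (right) for every probe of the complement list, 1 row per probe grouped by role; points and bars are the mean and SD of 4 replicates, and filled points have an adjusted p under 0.005. Most probes lie within 0.1 of 0, with Cfb, Cfd, Clu and Cd59b to the right on the left side and Cfd and 1 C1s probe to the right and C5ar1 to the left on the right side.

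C2, Cfb and C4a lie close together in the class III region of the major histocompatibility complex, C2 next to Cfb and C4a 5 genes beyond Cfb in the RefSeq order. Of 21 neighbouring genes listed, 15 had a probe, and of these, 0 rose and 1 fell against wt, and 0 passed against siScramble. The gene that fell was Ppt2, a lysosomal thioesterase, at -0.38 ± 0.04 over wt (limma adjusted p = 2.64e-05). Its call was lost with siPax8 in Cy3 only (-0.24) and with the processed signals (-0.41), over a range of adjusted p of 9.76e-08 to 0.00609. The genes on either side of Cfb, C2 and Nelfe, gave 0.06 and 0.02 over wt, neither past the threshold.

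Cfb and C1s are known as genes that interferon raises, and C3 and Cfb as genes of the acute phase, so lists for both responses were read on the same arrays. Of 23 interferon response genes measured, 17 rose and 0 fell against wt with every probe, with a median log2 ratio of 0.69, and 2 rose and 0 fell against siScramble, with a median of 0.19. Irf7, the interferon-inducible regulator, gave 2.36 ± 0.09 over wt and 0.74 ± 0.12 over siScramble (limma adjusted p = 8.48e-09 and 0.000378), and both probes of B2m, the light chain of class I molecules, passed in both comparisons. Cfb was called in the wt comparison, where more of these genes passed, and C1s in the siScramble comparison, where fewer did. The part of this response in either value was not tested.

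Among 25 acute phase and inflammatory control genes, 1 rose and 1 fell against wt and 2 rose and 0 fell against siScramble when every probe had to pass. Cebpd, a C/EBP factor of the acute phase, was the 1 gene of this list that passed in both comparisons, at 0.27 ± 0.08 over wt (limma adjusted p = 0.000496) and 0.29 ± 0.07 over siScramble (limma adjusted p = 0.00295). Its replicates ran from 0.20 to 0.38 and from 0.20 to 0.35. Its siScramble call was lost without replicate 1, 2 or 3 (0.27, 0.29 and 0.28), with siPax8 in Cy5 only and with the processed signals, over a range of adjusted p of 1.17e-05 to 0.0501, and its wt call was lost with the processed signals, over a range of 2.74e-05 to 0.0145.

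Cell type markers were read beside the label of the cells. Among 19 probes for 16 genes listed as thyroid follicular, 15 were well above background in all 8 siPax8 channels and 15 in all 8 wt channels. In the siScramble comparison these counts were 13 in siPax8 and 15 in siScramble channels. Against wt, 10 of the 16 genes fell and 3 rose. Of 14 hepatocyte probes, 10 were never above background in the wt comparison, as were 6 of 8 fibroblast probes and 3 of 3 endothelial probes. Of 8 macrophage and leukocyte probes, 1 was never above background in the wt comparison, 5 were above it in all 8 siPax8 channels and 4 in all 8 wt channels, and Cd68, a lysosomal protein of macrophages and other cells, gave 0.30 ± 0.12 over wt (limma adjusted p = 0.000829) and -0.00 ± 0.09 over siScramble. Their summed intensity was 1351 to 1688 in siPax8 and 1337 to 1449 in wt channels, and 1364 to 1677 and 1274 to 1618 in the siScramble comparison. The part of such cells in the values above was not tested.

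Likeness was described over the same 16 arrays, whose ratios share dyes, slides and siPax8 RNA. Each r below is among the highest of 5084 candidates, so it is a picked maximum. For each member seen above background, the bright named genes with the most similar course of log2 ratios were found. For Cfd they were Abhd14a and Pbld1 (Pearson's r = 0.97 and 0.92), and for Cfb they were Mospd1 and Atad3a (0.87 and 0.85). Cd59 ran most like Gng5 and Sf3a3 (0.93 and 0.87), C3 like Mvk and Tsen34 (0.92 and 0.86) and C2 like Stx7 and Ddost (0.69 and 0.65). The first C1s probe ran with Pim3 and Yrdc (0.93 and 0.92) and the second with Marcksl1 and Rab3il1 (0.89 and 0.87). This measure ignores the mean: Abhd14a, the closest to Cfd, had a mean log2 ratio of -0.48 ± 0.14 over wt where Cfd had 0.27.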

How the data were processed

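The authors deposited Agilent Feature Extraction output (version 10.1.1.1 per the file headers) of 16 2-colour arrays, with mean and background intensity of each spot, processed signals and a log10 ratio, and a table of log2 ratios that they normalized; comparison with the intensities showed that the table holds control over siPax8. Here the mean intensities were background-corrected (normexp, offset 50), loess-normalized within arrays and quantile-normalized across channels with limma 3.58.1 in R 4.3.3; control spots and outlier spots had weight 0 in loess. No member spot was saturated or an outlier. Dye orientations of a replicate number, whose deviations correlated (0.12 to 0.51), were averaged to 1 value. For replicate 2 over wt this correlation, 0.12, was lower than that with another replicate number, 0.20, so the check did not bear out that pair. Moderated tests on 4 values were adjusted by Benjamini-Hochberg over 41012 probes; the threshold was 0.005. The difference between comparisons was fitted on 8 values. A list gene counted as risen or fallen when all its probes passed. Of all probes, 10768 had a gene name. Between 52.0% and 60.8% of spots per channel were well above background, which, with 4 replicates, limits precision. All arrays were scanned on 1 day. The fits were tested on simulated data. Members, lists and named genes (all members, list genes past the threshold, and the 2 most similar genes above a mean log2 intensity of 8) were chosen with earlier results of these data known. Alternatives are listed in the closing section.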

Additional observations from a re-analysis of the deposited data

How the results depend on the processing

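No member ratio past the threshold changed sign under any alternative run. Quantile scaling of the average intensity leaves the log2 ratios as loess alone gives them, so these settings are the same alternative for every call. The count of member probes past the threshold against wt, 3 as reported, was 1 with Agilent's processed signals, 1 with siPax8 in Cy5 only and 0 to 2 when a replicate was left out, and 4 with the slide as a block. Against siScramble, 2 as reported, it was 0 with the processed signals, 0 with siPax8 in Cy5 only, 1 with loess alone, 1 with quantile scaling of the average intensity, 1 with the deposited value table, 1 without dim probes, 3 with a dye term, 3 with siPax8 in Cy3 only, 3 with the slide as a block, 4 at an adjusted p of 0.05 and 0 to 1 when a replicate was left out. For the difference between comparisons, 0 as reported, it was 1 with the replicate block (the first C1s probe, adjusted p = 0.000779; the range over the settings is 0.000779 to 0.0808), 1 without background correction, 2 at an adjusted p of 0.05 and 0 to 1 when a replicate was left out. The fits with a dye term and with the slide as a block count the 2 arrays of a replicate as separate values. The lowest adjusted p of some ranges above came from these fits. With the replicate number as a block within a comparison, the member counts were 3 and 2, and among the other genes named Clu alone changed its call, against siScramble. Across comparisons the replicate numbers were not taken as pairs, since replicate 3 correlated at 0.04 with its own number and at 0.40 with another. Replicates 1, 2 and 4 correlated at 0.39, 0.17 and 0.56 with their own numbers. Over the whole array, 6228 probes passed against wt, 1754 with the processed signals, 3460 with siPax8 in Cy3 only, 10726 at an adjusted p of 0.05 and 3351 to 6931 without a replicate; 831 passed against siScramble, 29 with the processed signals, 208 and 3470 with siPax8 in Cy5 and in Cy3 only, 2578 with a dye term, 1692 with the replicate block, 2409 with the slide as a block, 1728 with both comparisons in 1 fit, 3624 at an adjusted p of 0.05 and 116 to 367 without a replicate; and 1373 differed between comparisons, 2186 with the replicate block, 439 with the processed signals, 770 and 584 with siPax8 in Cy5 and in Cy3 only, 4209 at an adjusted p of 0.05 and 364 to 1022 without a replicate. Settings for genes that are not members were added after seeing the data: of 23 interferon response genes, 12 to 19 rose against wt and 0 to 7 against siScramble over all settings. The cause was not tested. C4a, Cfi and Cd55 lie at the background, so a fall of theirs, or a change that stays below background, could not be detected.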
